A study of Mus musculus with 2 samples.

Results

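The genes described here are the initiation and elongation factors of protein synthesis in the mouse small intestine. They were taken as every non-control probe of the array whose gene name begins with Eif or Eef and a digit, with 4 such names left out of the set. The rule used the names and no measured value. It gave 142 probes of 61 genes, out of 41174 probes and 27615 genes on the array. Of these, 127 probes and 60 genes were measured, that is, well above background in at least 1 diet on both arrays, against 25440 probes and 17160 genes in all. Eif2b3, a subunit of the exchange factor eIF2B, was not well above background. Among the measured probes, 126 were well above background in both diets.

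Total RNA came from the small intestine of C57BL/6 mice of 6 to 8 weeks. The controls ate conventional chow (Conv), and the other group was held on a food antigen-free diet (FAF), which provides amino acids, for at most 5 generations. Both RNA samples were hybridised together on 2 Agilent two-colour arrays, with FAF in Cy5 on the first array and in Cy3 on the second, so the design holds 1 RNA sample per diet and a technical dye swap. The labels name SPF and GF mice without saying which gave the RNA, and they do not say how many mice each RNA sample stands for. All ratios below are log2 of FAF over Conv, and the ± is how far each array lay from the mean of both. It covers dye and hybridisation error and not the spread between mice. No test between diets was possible, so sizes, array agreement and the shares among all genes are given.

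In translation initiation, the factor eIF2 brings the initiator tRNA to the small ribosomal subunit, and eIF2B recharges eIF2 with GTP. The eIF4 factors bind the cap of the mRNA and unwind it, and eIF3 joins the mRNA to the ribosome. In elongation, eEF1A delivers each aminoacyl-tRNA and eEF2 moves the ribosome along. Kinases that sense amino acid lack, haem lack or stress in the endoplasmic reticulum inhibit initiation by phosphorylating eIF2. In the intestine these factors serve an epithelium that is renewed continuously and secretes much protein. Many of their mRNAs, like those of ribosomal proteins, carry a tract of pyrimidines at the 5′ end through which their translation follows nutrient signals.

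The results turn partly on related genes whose ratios differed, so stretches of the brightest probes of 2 such pairs are shown. Each is 30 bases of a 60-base probe from the array file, 5′ to 3′, and the capitals mark its longest run shared with any measured probe of the related gene on the same strand.
Eif4a1 probe: gtgagtcaagggGCTAAAaaacaaggctgg
Eif4a2 probe: tcacaaatacagATTCTGAtagcaaagcga
Eif5a probe: aggttctgctcTGGCtgggcccttggctgg
Eif5a2 probe: aaacagataaaTGGCATTGtctaatccatt
The longest run shared between any measured probes of Eif4a1 and Eif4a2 was 7 bases, and between those of Eif5a and Eif5a2 it was 8 bases. The brightest Eif4a2 probe spans positions 23113472 to 23113531 of chromosome 16. The Eif4a1 probe spans 69480600 to 69480659 of chromosome 11. The Eif5a probe spans 69730729 to 69730788 of chromosome 11, and the Eif5a2 probe 28697445 to 28697504 of chromosome 3. All probe positions are in build mm9 as the array files give them, and the gene structure of that build was not used here.

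The translation factors as a group differed little between the diets. No factor passed a 2-fold rule, which asks for a mean of at least 2-fold and at least 1.5-fold the same way on each array. Of all 17160 genes, 1.53% passed it as higher and 0.88% as lower. No factor passed a 1.5-fold rule either, which asks for a mean of at least 1.5-fold and a level at least 25% above the other diet on each array, against 4.51% of all genes higher and 3.57% lower. The ratios ran from -0.53 for Eif5a to 0.58 for Eif4a2, with a median of -0.09, where the median of all genes was -0.0009. Ratios below 0 were found for 39 factors, or 65%, and ratios above 0 for 21, while 50.2% of all genes were below 0.

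At smaller sizes, factors lower in FAF outnumbered those that were higher. A 1.2-fold rule, with 1.1-fold on each array, was added after the values were seen. By this rule 13 of 60 factors (21.7%) were lower and 5 (8.33%) were higher, against 15.7% and 16% of all genes. Most factors are bright, and bright genes passed this rule more often. Among the 5107 genes at least as bright as the lowest quartile of the factors, 21.2% were lower and 22.4% higher. Against genes of that brightness the share of lower factors was therefore close to the background, and the share of higher factors was below it. Counted by sign alone, 32 factors (53.3%) were lower on both arrays and 15 (25%) higher on both, where all genes gave 39.5% and 38.7% and the bright genes 41.4% and 41.9%.

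The counts past these rules depended on the normalisation, more than the mean ratios did. When each array was centred on its median in place of loess, the 1.2-fold rule gave 0 factors lower and 0 higher, against 3.48% and 4.83% of all genes. By sign, 1 factor was lower and 2 were higher on both arrays, against 10.9% and 11.5% of all genes. The means over both arrays then had the same sign for 56 of the 60 factors, such as -0.34 for Eif2b1, -0.40 for Eif3b and 0.50 for Eif1ad. For 15 factors the mean shifted by more than the spread between the arrays. The median of the factors went from -0.09 to -0.05. Left unturned for the dye swap, the ratios gave 0 factors and 45 of all genes past the 1.2-fold rule. The arrays' ratios correlated over the 60 factors with r = 0.71 (Spearman 0.71), against 0.90 (0.81) over all genes, as a description across genes that share both hybridisations. The median distance of an array from the mean was 0.059 for the factors and 0.056 for all genes.

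**Figure D1:**
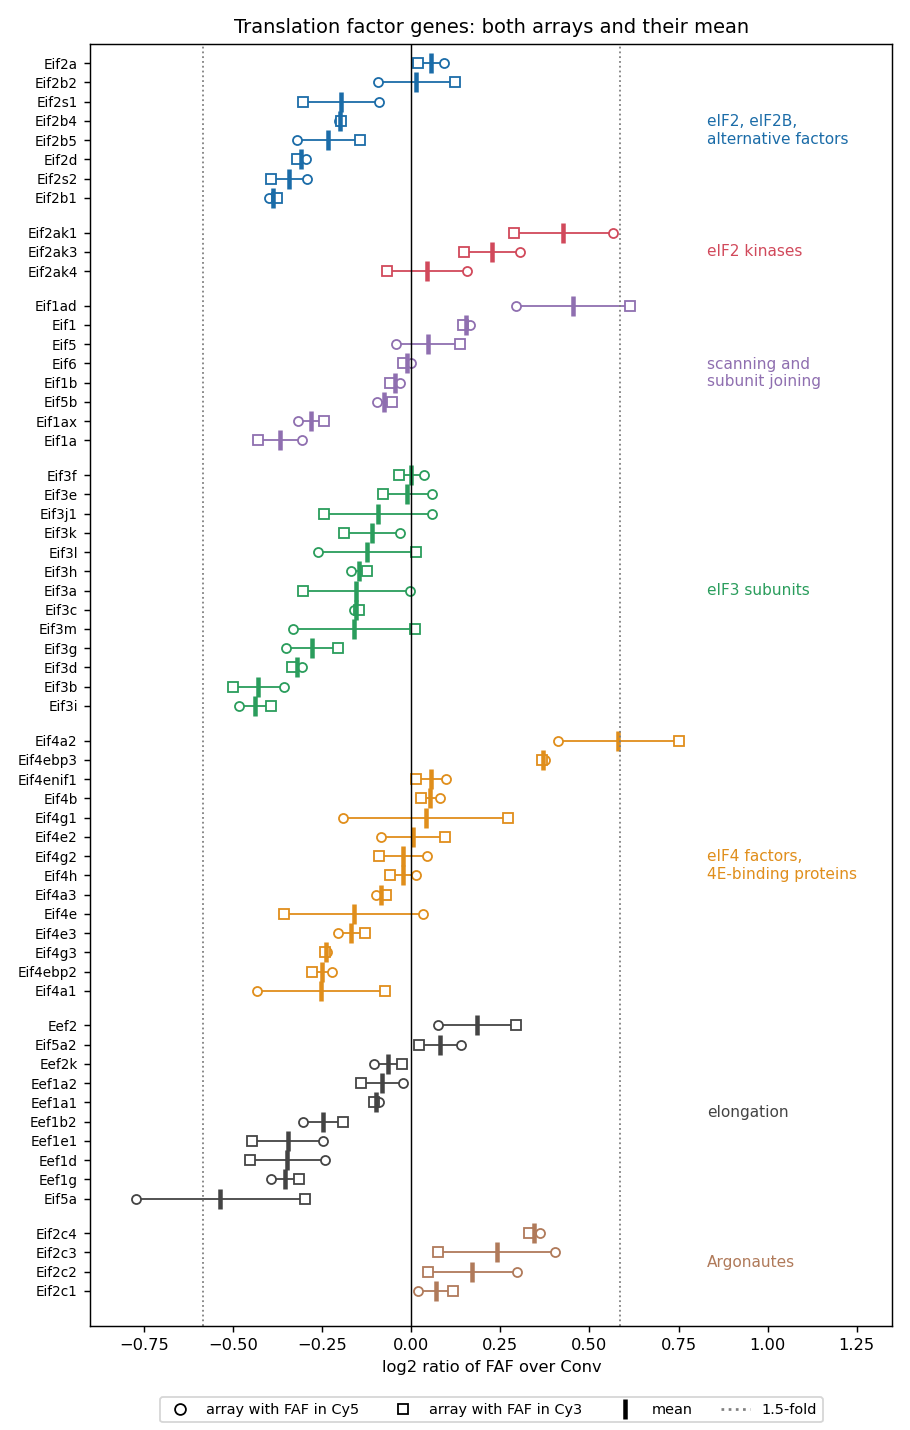
The log2 ratio of FAF over Conv is plotted for each of the 60 measured factors, grouped by role, with a circle for the array with FAF in Cy5, a square for the array with FAF in Cy3 and a bar for their mean. The dotted lines mark 1.5-fold, and the means lie between -0.53 and 0.58; 12 of the 13 eIF3 subunits have a mean below 0, and all 4 Argonautes have one above 0.

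Most subunits of eIF2 and eIF2B in the set had means below 0, and the 3 eIF2 kinases in it had means above 0. The names left out of the set mean that it does not hold every eIF2 subunit or eIF2 kinase. Of the 8 measured genes for eIF2, eIF2B and alternative carriers of the initiator tRNA, 6 (75%) were lower on both arrays. The shares were 39.5% of all genes and 41.4% of the 5107 bright genes. Eif2a, Eif2b5 and Eif2d were themselves dimmer than those bright genes. The 1.2-fold rule took 3 of the 8 as lower (37.5%, against 15.7% and 21.2%), and the median of the group was -0.22. The eIF2B subunit Eif2b2 was an exception at 0.01 ± 0.11, with opposite signs on the arrays. Their lowest was Eif2b1, the alpha subunit of eIF2B through which the phosphorylated eIF2 is sensed. Its log2 intensity was 11.32 and 11.34 in Conv and 10.92 and 10.97 in FAF, so FAF was lower on both arrays. The ratio was -0.39 ± 0.01. Eif2s2, the beta subunit of eIF2, had -0.34 ± 0.05, although its 3 probes ranged from -0.49 to -0.06. Eif2d, which can place tRNA on the ribosome without eIF2, had -0.31 ± 0.01, and its 3 measured probes ran from -0.31 to -0.06. The highest of the group was Eif2a, an alternative initiator factor outside the eIF2 complex, at 0.06 ± 0.04. Eif2s2, Eif2d and the other factors named beyond the highest, lowest and brightest of each role were chosen after their values were seen.

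Of the 3 kinases, Eif2ak1, which responds to lack of haem, was the highest at 0.43 ± 0.14. Its log2 intensity was 8.89 and 8.90 in Conv and 9.46 and 9.19 in FAF, higher in FAF on both arrays (0.57 and 0.29). Its other probes reached down to 0.07. Eif2ak3, the kinase of the endoplasmic reticulum stress response, had 0.23 ± 0.08, and its other probe gave 0.01 ± 0.12, with opposite signs on the arrays. Eif2ak4, also called GCN2, which senses uncharged tRNA when amino acids are short, was the lowest kinase at 0.04 ± 0.11. The arrays gave it 0.16 and -0.07, opposite signs, while its other probe was higher in FAF on both arrays at 0.11 ± 0.02.

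The genes grouped under scanning and subunit joining were mixed, with a median of -0.03 over 8 genes, 3 above and 5 below 0. The highest was Eif1ad, a protein with a domain like that of eIF1A, with intensities of 10.47 and 10.33 in Conv and 10.76 and 10.94 in FAF. Its ratio was 0.45 ± 0.16, and another of its probes gave 0.14. The lowest was Eif1a, a form of eIF1A, which opens the ribosome for scanning, at -0.37 ± 0.06. Its relative Eif1ax had -0.28 ± 0.04, with another probe at 0.03, and the difference between these relatives, -0.09 ± 0.10, was within the gap between arrays. Eif1, which guards the choice of the start codon and is among the 6 brightest factors, was slightly higher in FAF at 0.16 ± 0.01, and a second probe named for it, which the array file places on chromosome 1 while the first lies on chromosome 11, gave 0.14. Eif5, Eif5b and Eif6 lay between -0.08 and 0.05.

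The eIF3 subunits were lower in FAF or near 0, with none higher on both arrays. Of 13 subunits 12 had a mean below 0, 8 (61.5%) were lower on both arrays, and 4 (30.8%) passed the 1.2-fold rule as lower, with a median of -0.15. Of all genes, 39.5% were lower on both arrays and 15.7% passed that rule as lower, and of the bright genes 41.4% and 21.2%. The lowest was Eif3i, at 11.02 and 11.02 in Conv and 10.53 and 10.62 in FAF, a ratio of -0.44 ± 0.05. Eif3b, a core subunit and scaffold of the complex, had 13.34 and 13.46 in Conv and 12.98 and 12.96 in FAF, a ratio of -0.43 ± 0.07. Both genes were lower in FAF on both arrays. Eif3d, which can itself bind the cap of some mRNAs, had -0.32 ± 0.01, and Eif3g, a neighbour of Eif3i and Eif3b in the complex, had -0.28 ± 0.07.

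The other eIF3 subunits lay between -0.16 and 0.00. Among the brightest factors, Eif3l had -0.12 ± 0.14, with opposite signs on the arrays, and Eif3h had -0.15 ± 0.02, lower on both. The highest subunit was Eif3f, at 0.00 ± 0.04. The largest subunit, Eif3a, had -0.15 ± 0.15, and its other probe -0.39. Probes of Eif3c, which anchors eIF3 on the ribosome, spread most of all factors: 5 probes ran from -0.59 to -0.15, all below 0, and the brightest of them gave the smallest difference.

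The eIF4 factors showed no common direction, with a median of -0.02 over 14 genes, 6 above and 8 below 0. Within them 2 pairs of related genes lay on opposite sides of 0, each gene with the same sign under all 10 alternatives. Eif4a2 and Eif4a1 code for the RNA helicase that unwinds the 5′ end of mRNAs, and eIF4A1 is usually the more abundant form in dividing cells. Eif4a2 had log2 intensities of 12.63 and 12.59 in Conv and 13.04 and 13.34 in FAF, higher in FAF on both arrays. Its ratio of 0.58 ± 0.17, or 1.5-fold, was the highest of all factors and fell just short of the 1.5-fold limit of 0.585. Its dimmer probe gave 0.78 ± 0.00 and passed that limit. Eif4a1 was the lowest of the eIF4 genes, at 13.51 and 13.54 in Conv and 13.08 and 13.47 in FAF. Its ratio was -0.25 ± 0.18, unequal on the arrays at -0.43 and -0.07, and its 3 probes were all below 0, from -0.25 to -0.12.

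Relative to the first array, both genes had higher ratios on the second, by about the same amount. The difference Eif4a2 minus Eif4a1 was 0.84 on the first array and 0.82 on the second, or 0.83 ± 0.01. The 4E-binding proteins, which keep eIF4E from the cap-binding complex until they are phosphorylated, also differed. Eif4ebp3 had 10.86 and 10.82 in Conv and 11.24 and 11.18 in FAF, a ratio of 0.37 ± 0.01, and its other probe gave 0.31. Eif4ebp2 had -0.25 ± 0.03, lower on both arrays. Their difference was 0.60 and 0.64, or 0.62 ± 0.02.

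The remaining genes of cap recognition varied less. Eif4e, the cap-binding protein, had -0.16 ± 0.19, with opposite signs on the arrays, while its other probe was lower on both at -0.31 ± 0.04. Its relatives Eif4e2 and Eif4e3 had 0.01 ± 0.09 and -0.17 ± 0.04, and the other probe of Eif4e3 lay above 0 at 0.09 ± 0.03. The scaffold Eif4g1 had 0.04 ± 0.23 and its relative Eif4g3 -0.24 ± 0.00. Their difference of 0.28 ± 0.24 was 0.05 on the first array and 0.52 on the second. Eif4b and Eif4h, which assist the helicase, had 0.05 ± 0.03 and -0.02 ± 0.04.

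**Figure D2:**
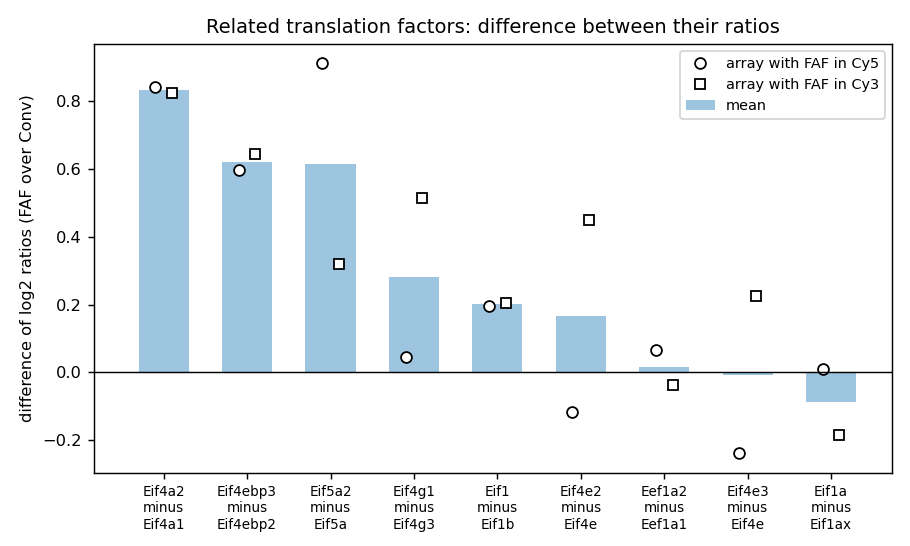
The bars give the difference between the log2 ratios (FAF over Conv) of 2 related factors for 9 comparisons, as the mean of both arrays, with a circle for the array with FAF in Cy5 and a square for the array with FAF in Cy3. The pairs Eif4a2 minus Eif4a1 (0.84 and 0.82) and Eif4ebp3 minus Eif4ebp2 (0.60 and 0.64) differ by nearly the same amount on both arrays, while the arrays differ in sign for the pairs with Eif4e, for Eef1a2 minus Eef1a1 and for Eif1a minus Eif1ax.

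The elongation factors were mostly lower in FAF. Of 10 genes 8 (80%) were lower on both arrays, against 39.5% of all genes and 41.4% of the 5107 bright genes. The 1.2-fold rule took 4 of the 10 as lower (40%, against 15.7% and 21.2%). Eef1a2, Eif5a2, Eef2k and Eef1e1 were themselves dimmer than those bright genes. Eef1a2, counted among the 8, was well above background on both arrays in Conv only. The median of the 10 genes was -0.17, and it was -0.27 with the log ratio of the scanner software. The lowest of all factors was Eif5a, which relieves ribosomes stalled at proline-rich stretches and carries the modified lysine hypusine. Its log2 intensity was 12.77 and 12.26 in Conv and 11.998 and 11.964 in FAF, so the Conv values differed between arrays more than the FAF values did. The ratio was -0.53 ± 0.24, or 1.45-fold lower, with -0.77 on the first array and -0.30 on the second, and its other probe gave -0.45 ± 0.28. On the first array alone Eif5a passed the 1.5-fold rule. Its relative Eif5a2 was at 0.08 ± 0.06, and the difference Eif5a2 minus Eif5a, 0.62 ± 0.30, was 0.91 and 0.32 on the arrays.

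Of the 6 genes of the eEF1 complex and its relatives, the 5 that were well above background in both diets were lower in FAF on both arrays, where 39.5% of all genes were. Eef1g, the structural gamma subunit and one of the brightest factors, had 15.73 and 15.70 in Conv and 15.34 and 15.38 in FAF, a ratio of -0.35 ± 0.04. Its other probe gave -0.55 ± 0.04. Eef1d and Eef1b2, the subunits that exchange GDP for GTP on eEF1A, had -0.35 ± 0.10 and -0.25 ± 0.06. Eef1e1, which sits in the complex of tRNA synthetases, had -0.35 ± 0.10.

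The carrier eEF1A itself differed less. Eef1a1, also among the brightest, had 15.48 and 15.58 in Conv and 15.39 and 15.48 in FAF, a ratio of -0.10 ± 0.01, and its other probe gave 0.07. Eef1a2, the form of muscle and nerve cells, was dim: it was well above background on both arrays in Conv and on 1 of 2 in FAF, so its ratio is uncertain and ran from -0.77 to -0.02 over the alternatives. Eef2, the translocation factor, was the highest elongation factor at 0.18 ± 0.11, with 3 probes between -0.02 and 0.27. Its kinase Eef2k, which stops elongation, had -0.06 ± 0.04. Many of these genes have processed pseudogenes of near-identical sequence, whose signal a probe cannot set apart.

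The rule on names also took in the 4 Argonaute genes, Eif2c1 to Eif2c4, whose current names are Ago1 to Ago4. They code for the proteins that carry small RNAs in silencing and are no initiation factors. By their brightest probes all 4 were higher in FAF on both arrays, against 38.7% of all genes. The 1.2-fold rule took 1 as higher (25%, against 16% of all genes). Their median was 0.21, with 0.33 on the first array, 0.10 on the second and 0.10 when the probes of a gene were averaged. The other measured probes of Eif2c1 and Eif2c3, at 0.04 and 0.02, had opposite signs on the arrays. Eif2c2 also had a probe at -0.03. The brightest probes of Eif2c1, Eif2c3 and Eif2c4 were dim, at mean log2 intensities of 7.58, 7.64 and 7.45, where the median of all genes was 8.85. Eif2c4 was the highest, at 7.29 and 7.27 in Conv and 7.65 and 7.60 in FAF, a ratio of 0.35 ± 0.01, but its 5 probes ran from -0.07 to 0.35. Eif2c1 was the lowest at 0.07 ± 0.05. Without them the median of the factors was -0.10 over 56 genes. On both arrays 32 of these were lower (57.1%) and 11 higher (19.6%), against 39.5% and 38.7% of all genes.

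Several probes measured 42 of the genes. The median gap between the highest and the lowest probe of a gene was 0.15, and the largest was 0.43, in Eif3c. All probes lay on the same side of 0 for 30 of the 42 genes, and no gene had probes apart by more than 0.58. Single probes past the 1.5-fold rule were 1 higher, the dimmer probe of Eif4a2, and 1 lower, a probe of Eif3c, where 3.98% and 2.88% of the 25440 probes measured passed. No spot was saturated, and no spot of these genes carried an outlier flag. Eif4a2 alone (0.68) passed the 1.5-fold rule when all probes of a gene were averaged.

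**Figure D3:**
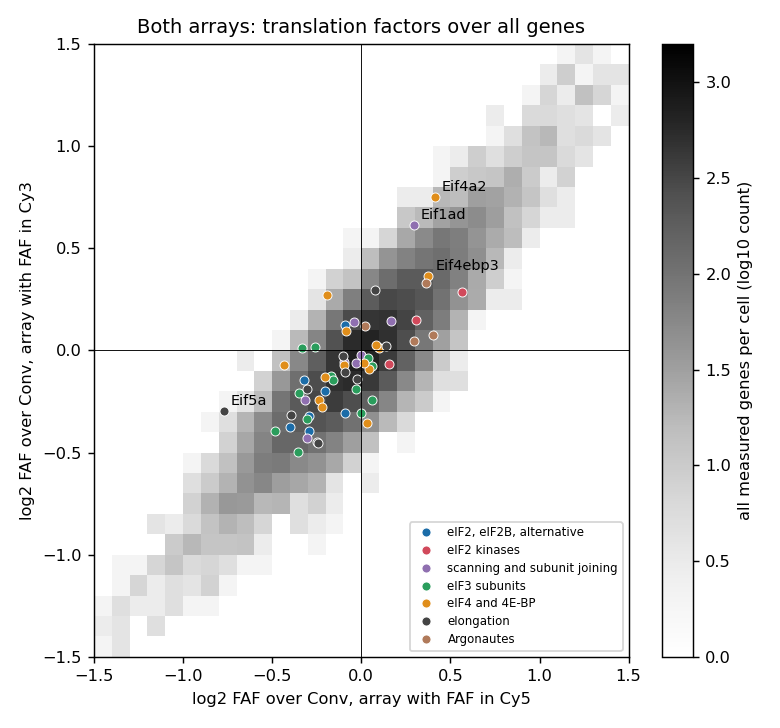
Each coloured point is a translation factor, at its log2 ratio on the array with FAF in Cy5 (x axis) and on the array with FAF in Cy3 (y axis), over a grey map of the log10 number of all 17160 measured genes. Eif4a2 and Eif1ad lie highest on the second array, at 0.75 and 0.61, and Eif5a lies lowest on the first array, at -0.77, while most factors lie in the dense centre of the map.

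Other genes of the pathway, from a list of 41, also differed little. Of 40 measured, 15 were above and 25 below 0, with a median of -0.06. None passed the 1.5-fold rule, 1 passed the 1.2-fold rule as higher (2.5%, against 16% of all genes) and 5 as lower (12.5%, against 15.7%). The highest was Mknk1, a kinase that phosphorylates eIF4E, at 0.41 ± 0.07. The lowest was Paip2b, an inhibitor of the poly(A)-binding protein, at -0.40 ± 0.12, and the poly(A)-binding protein Pabpc1 itself had -0.32 ± 0.11. Tufm and Tsfm, elongation factors of mitochondria, had -0.36 ± 0.00 and -0.33 ± 0.10, and Eefsec, which delivers selenocysteine, had -0.33 ± 0.09. The enzymes that make hypusine on eIF5A, Dhps and Dohh, had -0.07 ± 0.02 and -0.17 ± 0.05. Of the partners of the amino acid sensor GCN2, Gcn1 was lower in FAF on both arrays at -0.17 ± 0.07. The inhibitor Impact had 0.02 ± 0.13, with opposite signs on the arrays.

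The factors lay nearer to 0 than the ribosomal proteins. The 78 measured genes of cytosolic ribosomal proteins were all below 0, with a median of -0.36 and a range of -0.57 to -0.10. Of these, 77 were lower on both arrays (98.7%, against 39.5% of all genes). The 1.2-fold rule took 61 as lower (78.2%, against 15.7%). None passed the 1.5-fold rule. The 10 factors of a list of mRNAs with a 5′ pyrimidine tract, which share that feature with the ribosomal proteins, had a median of -0.12. On both arrays 6 of them were lower (60%) and 2 higher (20%), against 39.5% and 38.7% of all genes. The medians of ribosomal proteins and factors are set side by side without a test.

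**Figure D4:**
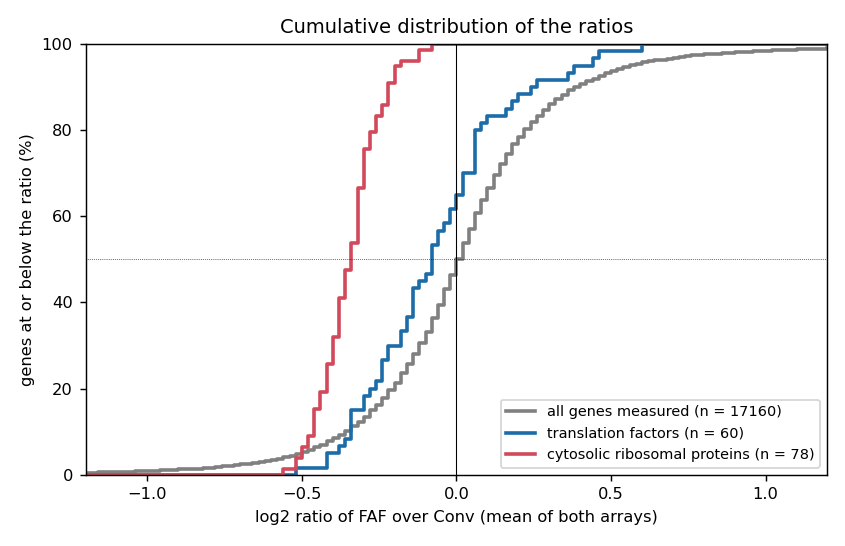
The curves give the percentage of genes at or below each log2 ratio of FAF over Conv, for all 17160 measured genes, the 60 translation factors and the 78 cytosolic ribosomal protein genes, in steps of the ratio. The curve of the factors crosses 50% at about the median of -0.09, between that of all genes near 0 and that of the ribosomal proteins at -0.36.

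Several lists of cell type markers lay farther from 0 than the factors. Of the 9 intestinal epithelium markers all were measured in both diets, with a median of 0.18. They ran from -0.16 for Cdx1 to 0.44 for Fabp2, apart from Sis, the sucrase of mature enterocytes, at 1.70, and 3 were below 0. All 8 markers of dividing cells were below 0, with a median of -0.94, and 7 passed the 1.5-fold rule as lower, against 3.57% of all genes. Medians were -0.53 over 7 plasma cell markers, -0.58 over 7 of smooth muscle, -1.06 over 6 of fat cells, -0.31 over 6 of enteric neurons, 0.08 over 5 of the exocrine pancreas and 0.02 over 4 of skeletal muscle. The fat cell list went both ways, with Cidec at 1.06 and the other 5 below 0. In this bulk tissue fewer cells of a type and less RNA per cell cannot be told apart, and the part of these cell types in the ratios of the factors was not tested.

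Promoter sequences of RefSeq, build GRCm38.p6, from 250 bases before to 50 after each start, were found for 49 of the 61 genes. The E-box CACGTG, its own reverse complement and known as a binding sequence of Myc, was present in 12 of these promoters (24.5%), against 8.09% of 27025 genes. A gene with several starts counted if any window held it. Those 27025 are all genes with a promoter sequence, measured here or not. No share among measured or equally bright genes was computed for any motif. The E-box is shown in capitals for 4 factors on which the results turn, each stretch read on the gene's strand.
Eif4a1, chr11:69672595-69672624, minus strand: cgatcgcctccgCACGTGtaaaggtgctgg
Eif5a, chr11:69920791-69920820, minus strand: gcgctgcgcggcCACGTGaggtgggggagg
Eif5a2, chr3:28781148-28781177, plus strand: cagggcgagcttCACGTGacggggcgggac
Eef2, chr10:81176576-81176605, plus strand: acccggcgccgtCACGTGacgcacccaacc
These 4 genes had ratios of -0.25, -0.53, 0.08 and 0.18. Of all 12 holders 8 were below 0, with a median ratio of -0.05, and of the 37 others 22 were, with a median of -0.09.

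The other 3 motifs were searched on both strands, and none of the motifs contains another. The ETS site CCGGAAGT was in 9 of the 49 promoters (18.4%), Eif5a and Eif5a2 among them, against 4.31% of genes. Its holders had a median of -0.12 and the 40 others -0.08. The amino acid response element TGATGNAA, a sequence bound by ATF4, was in the promoter of Eef2k alone (2.04%, against 4.51% of genes). The YY1 motif was in that of Eef1e1 alone, against 0.995% of genes. A match describes the letters searched in this window and is no measured binding.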

How the data were processed

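Gene expression was measured on 2 dye-swapped Agilent arrays with 1 RNA sample per diet. Per the file headers, the deposited scanner files come from Agilent Feature Extraction (version 11.5.1.1) and hold linear spot intensity per dye and a log10 ratio of Cy5 over Cy3. The deposited value table equals that log10 ratio to within 5e-08 over 45018 matched features. Its column medians are 0, and its direction is Cy5 over Cy3 on both arrays.

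Mean intensities were corrected by normexp (offset 50) and normalised within each array by loess, control spots at weight 0, with limma 3.58.1 in R 4.3.3. Log2 ratios were turned to FAF over Conv and averaged over the arrays. Spots flagged as outliers and control spots were left out. A gene was represented by its brightest measured probe. The log2 intensities per diet are those after loess and quantile scaling between arrays. The number of arrays limits the precision, and with 1 RNA sample per diet there was no test and no p-value.

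The genes, lists, promoter motifs and pairs of related genes were chosen with earlier results of these data known. The 1.2-fold rule and the count by sign on both arrays were added after the values were seen. Genes were named when they passed the 1.5-fold rule, were the highest or lowest of their role, were among the 6 brightest, or had probes apart by over 0.58. Other names were added after their values were seen. RefSeq (GRCm38.p6) gave current names for 119 of the 142 probes through their accession. The steps were tested on simulated data. Alternatives were other background, normalisation, filters, probe averaging and each array alone.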

Additional observations from a re-analysis of the deposited data

How the results depend on the processing

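No factor passed the 2-fold rule under any of the 10 alternatives. For the 1.5-fold rule, 1 factor was higher when probes were averaged, against 3.95% of all genes. With the log ratio of the scanner software 1 was lower, against 7.24%. Each array alone gave 0 to 2 higher (all genes 4.68% to 5.19%) and 0 to 1 lower (3.8% to 4.42%). For the 1.2-fold rule, median centring gave 0 higher and 0 lower (all genes 4.83% and 3.48%). That setting would leave a dye trend over intensity in each array, which was not examined. Averaging probes gave 3 higher (14.7%), and each array alone gave 7 to 8 higher (16.4% to 18.6%) and 15 lower (15.7% to 18.6%). By sign on both arrays, median centring gave 2 higher and 1 lower (11.5% and 10.9%), and each array alone 21 to 22 higher (46.9% to 52.3%) and 38 to 39 lower (47.7% to 53.1%). The median ratio of the factors was -0.0997 with an offset of 10, -0.0493 with median centring, -0.0993 with the software's log ratio, -0.1042 without the Argonaute genes, and -0.0905 to -0.0755 on single arrays. It was below 0 in each of these, while median centring lowered the counts of factors and the shares of all genes. The medians of the scanning and the eIF4 genes turned to 0.01 with median centring, that of the kinases was 0.12 with probes averaged and 0.15 on the second array, and that of the elongation genes was -0.25 for genes above background in both diets. The cause of these shifts was not tested. No paired analysis was possible because both arrays hold the same pair of RNA samples. The arrays' number and the single RNA sample per diet limit all of these values.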
